A study of Drosophila melanogaster with 24 samples.

Results

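The genes described here are 10 heat shock protein and chaperone genes of *Drosophila melanogaster*: the small heat shock protein genes *Hsp22*, *Hsp23*, *Hsp26* and *Hsp27*, the Hsp70 family genes *Hsp68*, *Hsc70-4* and *Hsc70-5*, the Hsp90 gene *Hsp83*, and the co-chaperone genes *DnaJ-1* and *Hop*. They were taken by name from a table of 16995 genes, and all 10 were listed in it. Each of 24 libraries held the 3′ ends of polyadenylated RNA from the brain of a single adult mated *tau*-KO fly. Injured flies had received a single full body strike in a high impact trauma device, which throws the flies against the wall of a vial. There were 8 groups of 3 libraries each, namely uninjured (control) *tau*-KO males, *tau*-KO males sampled 1, 2 or 4 h post-TBI (traumatic brain injury), and *tau*-KO females in the same 4 conditions. Every group, the controls included, lacked part of *tau*, the gene of a microtubule-binding protein, so none of the comparisons below sets the mutant against flies with an intact *tau*. The blow hit the whole body, and the labels do not say how control flies were handled.

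Chaperones bind unfolded or newly made proteins and keep them from clumping. Small heat shock proteins hold unfolding proteins in a soluble state, proteins of the Hsp70 family fold them in cycles of ATP binding and hydrolysis, J-domain proteins such as DnaJ-1 deliver them to Hsp70, and Hop bridges Hsp70 and Hsp90. Under heat and other proteotoxic stress the factor Hsf raises the inducible genes (*Hsp22*, *Hsp23*, *Hsp26*, *Hsp27*, *Hsp68*) far above their resting level, while *Hsc70-4* and *Hsc70-5* are constitutive genes. *Hsp83*, *DnaJ-1* and *Hop* are active at rest and also heat-inducible. In the fly brain this response is known mainly from heat, ageing and models of protein aggregation.

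The shallowest library, male control 1, held 117416 reads assigned to genes, the deepest, male 1 h 2, held 1880528, and the median library held 772916. The 10 genes together took 0.0749 to 0.163% of them. The next shallowest were male 4 h 1 (158790) and male 1 h 3 (290304). Levels are given as CPM, counts normalised to library size, after TMM scaling, in which a factor per library evens out differences in composition. Of the 24 profiles, those of male control 2 and male 1 h 2 were unlike the others: their log2 profiles correlated at 0.722 and 0.697 with the mean of the other libraries, against 0.876 to 0.973 for the other 22. The 10 neuron markers were all counted in every library and summed to 1025 CPM in male control 2 and 1198 CPM in male 1 h 2, against 2118 to 4274 CPM in the others. The 6 muscle markers summed to 269 and 284 CPM in those libraries, against 2345 to 3599 CPM in the others. The 9 glia markers summed to 1506 to 2785 CPM over all 24 libraries, the 7 photoreceptor markers to 2429 to 16384 CPM, the 6 fat body markers to 1351 to 22638 CPM and the 8 antenna markers to 236 to 7554 CPM. The labelled brains thus also held RNA of eye, muscle, fat body and antenna genes. The highest fat body and antenna sums, 22638 and 7554 CPM, were both those of female control 2, against 8406 and 8813 CPM of fat body markers and 452 and 459 CPM of antenna markers in the other female controls. Of the defining markers, *Fbp1* (fat body) was at 0 in all but 2 libraries and *Orco* (antenna) in all but 8. Male control 2 or male 1 h 2 held the highest or lowest of the 24 values for 8 of the 9 counted members. Results of members that rest on these libraries are thus also given without them. For genes of the other chaperone lists below, no values without these libraries are given.

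*Hsp22*, whose protein is a mitochondrial small heat shock protein, had 0 counts in all 24 libraries. With 19947845 reads in genes over all libraries, a count of 0 allows up to 0.150 CPM (3 counts), and up to 25.6 CPM in the shallowest library alone, for counting error only. In the reference annotation (BDGP6, a later build than the authors' dm3) the exons of *Hsp22* overlap those of *CG4456* on the same strand, and *CG4456* was also at 0 in all 24 libraries. Reads that fell in overlapping genes were not counted for either, and these ambiguous reads were 6.06 to 8.71% of a library, so a 0 here does not show that *Hsp22* was silent. The heat-inducible copies *Hsp70Aa*, *Hsp70Ab*, *Hsp70Ba*, *Hsp70Bb* and *Hsp70Bbb* were likewise at 0 in all 24 libraries, and *Hsp70Bc* had 15 counts in 3 libraries. These copies are near-identical, and reads that aligned to more than 1 place (12.2 to 32.2% of a library) were not counted. The classical Hsp70 genes were therefore not measurable in these counts.

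The other 9 members passed the filter of at least 5 counts in at least 3 libraries, as did 7865 genes in all. All 24 libraries entered 1 edgeR quasi-likelihood fit with a term for each of the 8 groups, and a gene was called where its unadjusted p was under 0.05 with a log2 fold change (log2 FC) beyond 1 in either direction, the rule in the study's heatmap legends. Injury was set against control of the same sex at 3 times, which gave 54 tests of members. Of these, 3 were called: *Hsp26* was higher in males at 1 h, *Hsc70-5* was lower in males at 2 h, and *Hop* was lower in females at 2 h. Of all genes tested, 4.64% were called in males at 1 h, 7.26% at 2 h and 3.92% at 4 h, and in females 1.44%, 2.16% and 1.42%, so 1 or 0 calls among 9 members in each comparison was close to what the whole table showed. At an adjusted p under 0.05 (Benjamini and Hochberg, edgeR) no gene of the 7865 was called in any of the 14 comparisons, and the lowest adjusted p of any member was 0.640. An unadjusted p under 0.05 at any fold change was reached by 4.86%, 7.73% and 4.23% of genes in males at 1, 2 and 4 h and 1.49%, 2.23% and 1.49% in females, the 3 called member values among them, and at an adjusted p under 0.05 DESeq2 called 0 to 4 genes and edgeR without the filter 5 to 32 per comparison. The median log2 FC of the 9 members was 0.03, −0.33 and −0.34 in males at 1, 2 and 4 h, beside 0.02, −0.02 and −0.05 over all tested genes. In females it was −0.22, −0.28 and −0.10, beside −0.06, −0.02 and 0.02. The median of the members thus stayed within 0.34 of 0 in all 6 comparisons, and no inducible member other than *Hsp26* in males at 1 h was called higher after injury. In bulk libraries fewer cells of a type and less RNA per cell cannot be told apart, which holds for every level below. Nothing in the labels says more of the 3 libraries of a group than that they are replicates, and the study's methods call them biological.

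**Figure D1:**
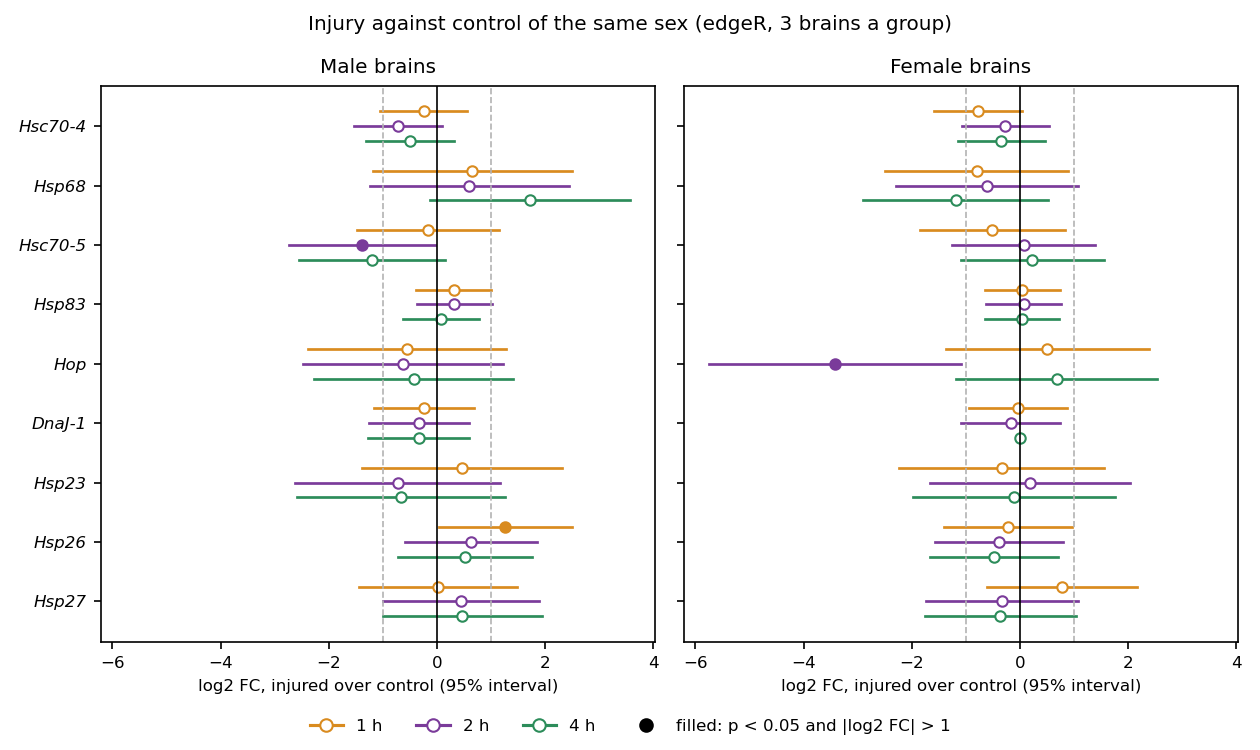
Log2 FC of the 9 counted members in injured against control brains of the same sex, males on the left and females on the right, with 95% intervals, at 1 h (orange), 2 h (purple) and 4 h (green). Filled points are the 3 called values (*Hsp26* 1.27 in males at 1 h, *Hsc70-5* −1.39 in males at 2 h, *Hop* −3.42 in females at 2 h), dashed lines mark a log2 FC of 1 in either direction, and *DnaJ-1* in females at 4 h (0.0073) has no interval because none was computed for a log2 FC under 0.01.

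Among the small heat shock protein genes, *Hsp26*, whose product is a cytosolic chaperone, had 31.8, 88.4 and 24.6 CPM in the males at 1 h, against 14.1, 15.3 and 29.4 CPM in the male controls. The highest injured value lay in male 1 h 2, and the other injured values overlapped the controls. The means were 48.3 ± 34.9 CPM in males at 1 h and 19.6 ± 8.50 CPM in male controls (SD, n = 3 each), a log2 FC of 1.27 (SE 0.60, 95% interval 0.04 to 2.49, edgeR adjusted p = 0.999). Without male control 2 and male 1 h 2 the log2 FC was 0.25 and the gene was not called, and without male 1 h 2 alone it was 0.48. It was also not called without male control 1 or male control 2, in limma voom, in a fit without the filter, or with the replicate number as a block (log2 FC 1.16). In males at 2 and 4 h *Hsp26* had log2 FC of 0.63 and 0.52.

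In females *Hsp26* had 27.8, 28.7 and 26.3 CPM at 4 h, against 35.1, 30.7 and 50.3 CPM in the controls. Each injured value was below each control, with a log2 FC of −0.48 (SE 0.58) that was not called. All injured values were below all controls in this comparison for 3.13% of all tested genes. At 1 and 2 h the female log2 FC was −0.22 and −0.39.

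*Hsp23*, a cytosolic small heat shock protein gene next to *Hsp67Ba* and *Hsp27* on chromosome arm 3L, was spread widely within groups. Its values ran from 12.3 to 62.2 CPM in males at 1 h, 6.73 to 29.5 CPM at 2 h and 5.45 to 31.4 CPM at 4 h, against 14.1 to 40.4 CPM in male controls. In females they ran from 4.19 to 23.1 CPM at 1 h, 2.54 to 35.9 CPM at 2 h and 1.74 to 45.8 CPM at 4 h, against 14.5 to 26.3 CPM in controls. Every injured group overlapped its control, and the 6 log2 FC lay between −0.73 and 0.46 with SE of 0.90 to 0.93. In females at 4 h the log2 FC was −0.10, but −1.76 and called in limma voom, and −1.68 without female 4 h 2, which held 45.8 CPM. The dispersion of *Hsp23* between libraries of a group was the largest of the 9 members, equal to a coefficient of variation of 72.5%.

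*Hsp27*, whose protein is mainly nuclear, reached 137 CPM in female 1 h 1, its highest value, and 4.04 CPM in male control 2, its lowest. In males it averaged 33.3 ± 17.8 CPM at 1 h, 43.2 ± 6.17 CPM at 2 h and 45.8 ± 22.6 CPM at 4 h, against 31.4 ± 29.1 CPM in controls (SD, n = 3 each). In females it averaged 79.2 ± 50.5 CPM at 1 h, 37.5 ± 19.8 CPM at 2 h and 35.9 ± 9.02 CPM at 4 h, against 46.5 ± 17.7 CPM in controls. The log2 FC ran from −0.37 to 0.77 and none was called. Leaving out male control 3 gave log2 FC of 1.95 and 1.98 in males at 2 and 4 h, both called, and leaving out male control 2 gave −0.16 and −0.14, so the male values rested on which of 2 control brains was kept.

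**Figure D2:**
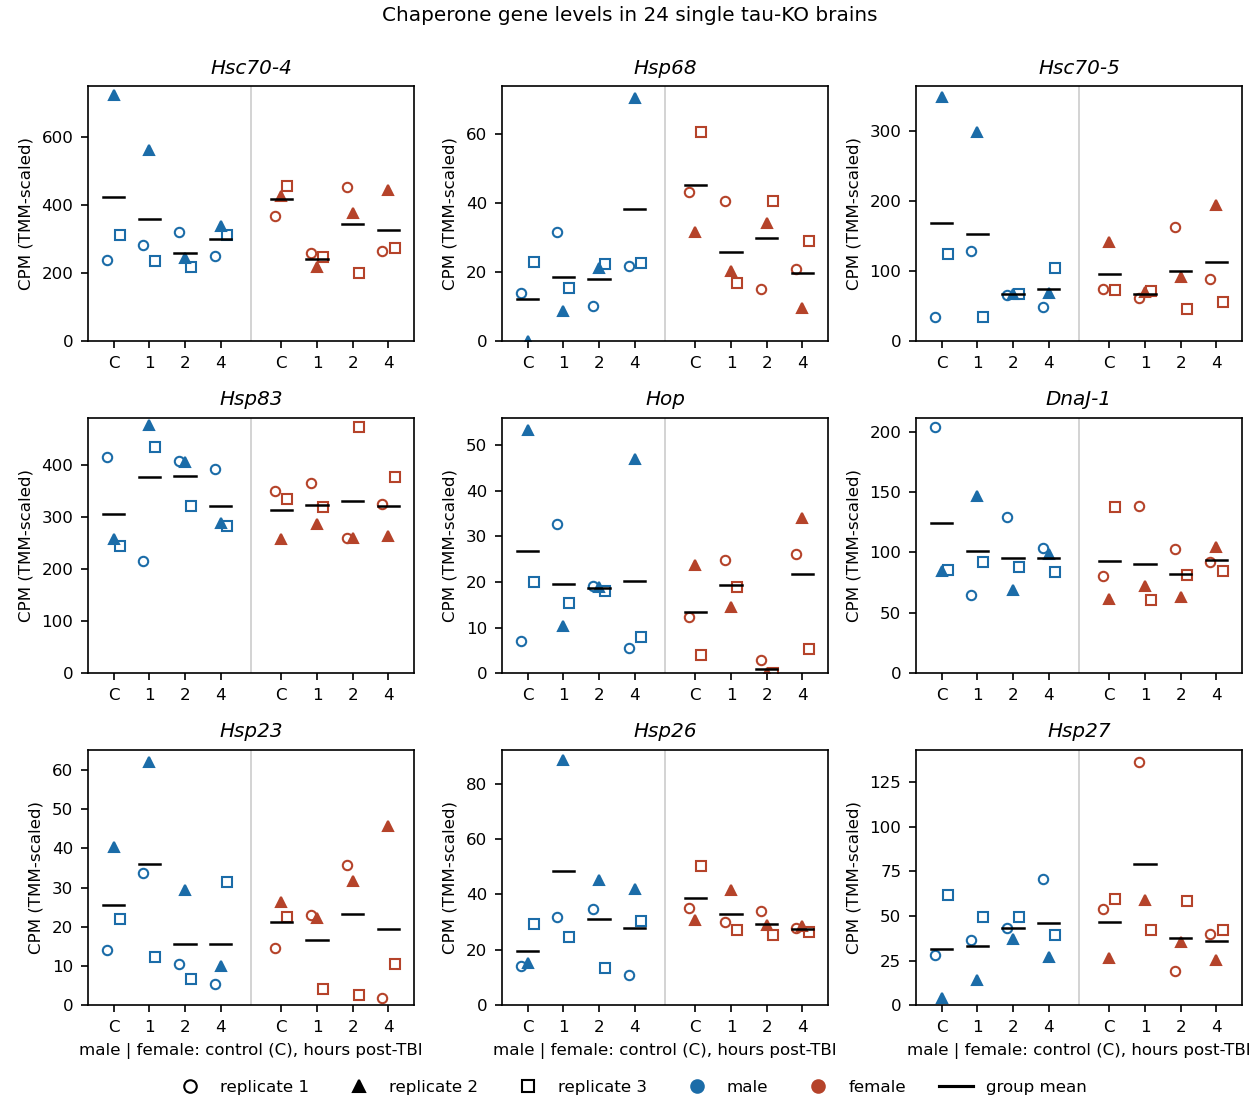
CPM of the 9 counted members in each library, with males on the left and females on the right of each panel, as control (C) and at 1, 2 and 4 h post-TBI, each axis starting at 0. Marker shapes give the replicate number and black bars the group means, and male control 2 and male 1 h 2 (the triangles in the male C and 1 columns) hold the highest *Hsc70-4* and *Hsc70-5* values, at 725 and 563 CPM and at 348 and 298 CPM.

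Of the Hsp70 family, *Hsc70-5*, the gene of the mitochondrial Hsp70 that pulls proteins into the matrix, had 65.7, 67.2 and 67.3 CPM in the males at 2 h, against 35.2, 348 and 124 CPM in the male controls. The injured brains lay close together, inside the wide range of the controls. The means were 66.7 ± 0.897 CPM in males at 2 h and 169 ± 161 CPM in male controls (SD, n = 3 each), with a log2 FC of −1.39 (SE 0.66, 95% interval −2.74 to −0.04, edgeR adjusted p = 0.640). Without male control 2 and male 1 h 2 the log2 FC was −0.37, and without male control 2 alone −0.36, and neither was called. The call was also lost in 9 other fits that each left out a single library, in limma voom and with the replicate block (−1.18). At 4 h in males *Hsc70-5* had 49.1, 69.3 and 104 CPM and a log2 FC of −1.20 (SE 0.66), not called, against the same controls. It was called without the filter (−1.17), without the 3 shallowest libraries (−1.34) and without male control 1 (−1.53), and was −0.17 without male control 2.

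Several marker sets moved beside the value at 2 h in males. Of the neuron markers, with which *Hsc70-5* varied inversely over the libraries, the log2 FC of all 10 was above 0 at 2 h in males, with a median of 0.57, and they summed to 2971 to 4049 CPM, against 1025 to 3802 CPM in male controls. The median log2 FC was −0.59 for the glia markers (7 of 9 negative, *Gat* and *wrapper* called lower) and −1.74 for the antenna markers (7 of 8 negative, none called). It was 0.45 for the 5 tested fat body markers (all positive, none called) and 0.64 for the muscle markers (5 of 6 positive, none called). Male control 2 held the lowest neuron, muscle and fat body sums of the male controls (1025, 269 and 1351 CPM). It also held their highest glia and antenna sums (2785 and 1302 CPM). The part of these sets in the *Hsc70-5* value was not tested. In females *Hsc70-5* had 62.1, 69.6 and 71.2 CPM at 1 h, against 74.4, 141 and 72.7 CPM in controls. All values at 1 h were lower than all controls, as was so for 5.21% of all tested genes, with a log2 FC of −0.51 (SE 0.65) that was not called. At 2 and 4 h the female log2 FC was 0.07 and 0.23.

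*Hsc70-4*, the constitutive cytosolic Hsp70 that also strips clathrin from vesicles at synapses, had 261, 218 and 249 CPM in females at 1 h, against 368, 427 and 458 CPM in female controls. All values at 1 h were lower than all controls, as was so for 5.21% of all tested genes. The log2 FC was −0.78 (SE 0.40, 95% interval −1.60 to 0.03, edgeR adjusted p = 1) and the gene was not called. In females at 2 and 4 h it averaged 344 ± 130 and 329 ± 101 CPM, against 418 ± 45.6 CPM in controls (SD, n = 3 each). In males it averaged 361 ± 176, 261 ± 54.1 and 302 ± 46.0 CPM at 1, 2 and 4 h, against 425 ± 262 CPM in controls, whose highest value, 725 CPM, was male control 2. All 6 log2 FC of *Hsc70-4* were negative, from −0.78 to −0.24, but in males at 1 and 4 h the sign was positive (0.39 and 0.13) without male control 2.

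*Hsp68* encodes a heat-inducible Hsp70. It had 21.8, 70.5 and 22.6 CPM in males at 4 h, against 14.1, 0 and 23.1 CPM in male controls, and 20.8, 9.58 and 29.0 CPM in females at 4 h, against 43.4, 31.6 and 60.8 CPM in female controls. In males the injured and control values overlapped, with a log2 FC of 1.72 (SE 0.90, edgeR adjusted p = 0.962), while in females all injured values were lower, as was so for 3.13% of all tested genes, with a log2 FC of −1.19 (SE 0.83, edgeR adjusted p = 1). Neither was called. The difference of the male and the female effect at 4 h was 2.91 (SE 1.22, 95% interval 0.40 to 5.43, edgeR adjusted p = 0.9998) and was called, as were 3.05% of all tested genes. At 1 and 2 h the same difference was 1.45 and 1.21, not called. At those times *Hsp68* averaged 18.7 ± 11.9 and 18.0 ± 6.62 CPM in males, against 12.4 ± 11.6 CPM in male controls (SD, n = 3 each). In females it ran from 16.8 to 40.8 CPM at 1 h and 15.1 to 40.6 CPM at 2 h, against 31.6 to 60.8 CPM in female controls. Over 8 alternative fits the male value at 4 h ran from 0.998 to 2.07 and was called in 3. These were DESeq2 (1.70), the fit without the filter (1.70) and that with the replicate block (2.03). It was not called without male control 2, the control at 0, together with male 1 h 2. Without male 4 h 2 it was 0.91. Antenna markers moved the same way between the sexes: all 8 had a positive male minus female difference at 4 h, 4 of them called, with a median of 2.80, and in females at 4 h all 8 were lower, 7 of them called. Their sums were 236 to 486 CPM in females at 4 h, against 452 to 7554 CPM in female controls, where the highest was female control 2. That library held the lowest of the 3 *Hsp68* values in female controls, and the part of these markers in the *Hsp68* difference was not tested. The exons of *Hsp68* overlap *CG6000* and a non-coding RNA on the other strand in the reference annotation, as those of *Hsp27* and *Hsp83* overlap *CR43483* and *CG14966*. Whether reads were counted by strand is not given in the sources used here, so reads of such partners may be included.

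*Hsp83*, the single Hsp90 gene of the fly, was the steadiest member. It averaged 376 ± 140, 378 ± 49.5 and 321 ± 61.9 CPM in males at 1, 2 and 4 h, against 306 ± 94.9 CPM in controls, and 323 ± 40.0, 330 ± 123 and 321 ± 57.0 CPM in females, against 314 ± 49.1 CPM in controls (SD, n = 3 each). Over all 24 libraries it stayed within 215 to 477 CPM. The log2 FC ran from 0.03 to 0.32 with SE of 0.34, and the 95% intervals of all 6 together spanned −0.65 to 1.02.

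*DnaJ-1*, the gene of the main heat-inducible J-domain protein, ran from 60.8 to 204 CPM over the 24 libraries, and its highest value lay in male control 1, the shallowest library, with 29 counts. It averaged 101 ± 41.8, 95.3 ± 31.2 and 95.3 ± 10.6 CPM in males at 1, 2 and 4 h, against 125 ± 68.9 CPM in controls, and 90.6 ± 41.9, 82.4 ± 19.9 and 93.5 ± 10.1 CPM in females, against 93.2 ± 39.6 CPM in controls. The 6 log2 FC lay between −0.34 and 0.0073 and none was called. Without male control 1 the male values turned positive, to 0.28, 0.22 and 0.23 at 1, 2 and 4 h.

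*Hop*, the gene of the Hsp70/Hsp90 organising co-chaperone (named *Stip1* in the reference annotation, and not the kinase gene *hop*), had 3, 0 and 0 counts in the females at 2 h, against 6, 27 and 3 counts in the female controls. In CPM these were 2.83, 0 and 0, against 12.4, 23.7 and 3.97. All injured values were below all controls, as was so for 3.42% of all tested genes in that comparison, and the ratio of the summed levels was 0.0784 (95% counting interval 0.0154 to 0.248). The fitted log2 FC was −3.42 (SE 1.13, edgeR adjusted p = 1), the lowest p of any member in an injury comparison. It was called in all 8 alternative fits, with log2 FC of −3.56 to −3.17, and in all 24 fits that each left out a library, with −2.65 as the smallest change, without female control 2. The values lay below those of the other female times as well: *Hop* had 24.9, 14.5 and 18.9 CPM in females at 1 h and 26.0, 34.1 and 5.27 CPM at 4 h. The lowest of these, in female 4 h 3, was 4 counts, beside 3 counts in female 2 h 1, so these brains were hardly separated.

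In males at 2 h *Hop* had 19.0, 18.9 and 17.9 CPM, against 7.04, 53.3 and 19.9 CPM in controls, for a log2 FC of −0.63 (SE 0.90) that was not called and turned to 0.28 without male control 2 and male 1 h 2. The difference between the male and the female effect at 2 h was 2.79 (SE 1.42, 95% interval −0.13 to 5.71) and was not called, so the fall in females was not shown to differ from males. It was called (3.65) without male control 2 and male 1 h 2, and in limma voom (3.14). Over both sexes *Hop* was lower at 2 h than in controls (log2 FC −2.02, SE 0.72, edgeR adjusted p = 0.831), the only member called in the 3 comparisons that averaged the sexes, in which 3.34%, 5.15% and 2.71% of all genes were called at 1, 2 and 4 h. The female and the averaged comparisons share their libraries. The lowest summed neuron markers in females at 2 h were 2291 CPM and the highest 4274 CPM, against 2118 and 3801 CPM in female controls. The antenna markers summed to 266, 372 and 609 CPM in females at 2 h, against 452, 459 and 7554 CPM in female controls, and the part of either set in the *Hop* value was not tested.

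Between the sexes, 1 of the 9 members was called in controls, where 3.03% of all tested genes were. *Hsp68* had 14.1, 0 and 23.1 CPM in male controls, against 43.4, 31.6 and 60.8 CPM in female controls. All male values were lower, with a log2 FC of −1.92 (SE 0.89, edgeR adjusted p = 1). The value was −1.16 and not called without male control 2, the library at 0, together with male 1 h 2. The call was also lost without male control 1, male control 2, female control 1 or female control 3, each left out alone. Of the 5 fat body markers tested, the yolk protein genes *Yp1*, *Yp2* and *Yp3* were called lower in male controls, while *Lsp2* and *apolpp* were not called. The fat body markers summed to 1351 to 7013 CPM in male controls, against 8406 to 22638 CPM in female controls. These sums include the yolk protein genes, so they do not tell the amount of fat body from the level of those genes. The part of the markers in the *Hsp68* value was not tested. All male control values of *Hsp26* were likewise below the female ones, with 14.1, 15.3 and 29.4 CPM in males against 35.1, 30.7 and 50.3 CPM in females (log2 FC −0.92, SE 0.60, not called), and 3.74% of all tested genes had all male controls below all female controls.

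These male and female controls also enter the injury comparisons, so the low male and high female control values of *Hsp68* and *Hsp26* are shared by the male values above 0 and the female values below 0 after injury. Over all times, *Hop* was higher in males than in females, with means of 21.2 ± 15.5 and 13.9 ± 11.6 CPM (SD, n = 12 each) and a log2 FC of 1.24 (SE 0.48, edgeR adjusted p = 1.00). Of all tested genes, 3.03% were called. The *Hop* call was lost without male 4 h 2 (0.82), which held 47.0 CPM, and the 3 female libraries at 2 h account for the lowest female values. No member was called for a difference in the injury effect between the sexes at 1 or 2 h, where 3.04% and 3.65% of all genes were. For *Hsc70-5* at 2 h that difference was −1.46 (SE 0.92), but it was called without the filter (−1.45), without the 3 shallowest libraries (−1.84) and without male control 1, and was −0.43 without male control 2.

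Apart from injury and sex, members differed between single brains, and they did so together with markers of tissue and with depth. Since male control 2 and male 1 h 2 form a cluster of their own, correlations are given over the other 22 libraries, on log2(CPM + 5). *Hsc70-5* fell as the summed neuron markers rose, with Pearson's r = −0.887 and Spearman's rho = −0.867 (permutation p = 1e-05 for each, the smallest that 100000 permutations can give, adjusted p = 0.000315 over 63 relations of the 9 members with 6 marker sums and the total count, of which 17 had an adjusted p under 0.05 for r). After the 2 libraries farthest from the median were left out r was −0.844, within groups it was −0.927, in the 12 females −0.932 and in the 10 males −0.867. Of the 4006 genes with a mean of at least 20 CPM, 46 had a lower r with the neuron markers. *Hsp83* went the other way, with r = 0.829 and rho = 0.849 (permutation p = 1e-05 for each, adjusted p = 0.000315), 0.828 without the 2 extreme libraries and 0.849 within groups. Strong relations with neuron markers were common in the whole table over all 24 libraries and are not read as particular to the members. There, 33.1% of the 4006 genes had an r beyond 0.7 in either direction. Over the same 24, r was −0.936 for *Hsc70-5*, −0.828 for *Hsc70-4*, 0.783 for *Hsp27* and −0.757 for *Hsp23*. For the other members it lay between −0.306 and 0.563. Neither that share nor the share of relations with an adjusted p under 0.05 was computed over all genes for the 22 libraries.

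*Hsp23* (r = −0.768, rho = −0.749) and *Hsc70-4* (r = −0.662, rho = −0.654) also fell with the neuron markers, with permutation adjusted p = 0.000472 and 0.00588 for r, and without the 2 extreme libraries r was −0.740 and −0.538. For *Hsp27* r was 0.520 (rho = 0.575, permutation adjusted p = 0.0417), but 0.399 without the 2 extreme libraries. For *Hsp26*, *Hsp68*, *DnaJ-1* and *Hop* r lay between −0.34 and 0.32, with adjusted p over 0.05. The photoreceptor markers gave similar values, with r = −0.817 for *Hsc70-5*, −0.756 for *Hsp23*, −0.675 for *Hsc70-4*, 0.683 for *Hsp83* and 0.566 for *Hsp27* (permutation adjusted p of 0.000472 to 0.0264). Without the 2 extreme libraries of that sum they were −0.719, −0.729, −0.545, 0.671 and 0.459. *Hsp26* rose with the muscle markers (r = 0.666, rho = 0.597, permutation adjusted p = 0.00458) and the total count (r = 0.725, rho = 0.584). Without the 2 extreme libraries of each measure these r were 0.600 and 0.459. With the muscle markers r was 0.363 in females and 0.750 in males, and with the total count 0.237 and 0.831. The neuron markers themselves fell with the total count (r = −0.736, rho = −0.886), and *Hsc70-5* and *Hsp83* followed the total count at r = 0.763 and −0.681. Depth and the make-up of the dissected tissue cannot be told apart in these libraries, and the part of either in the injury results was not tested.

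**Figure D3:**
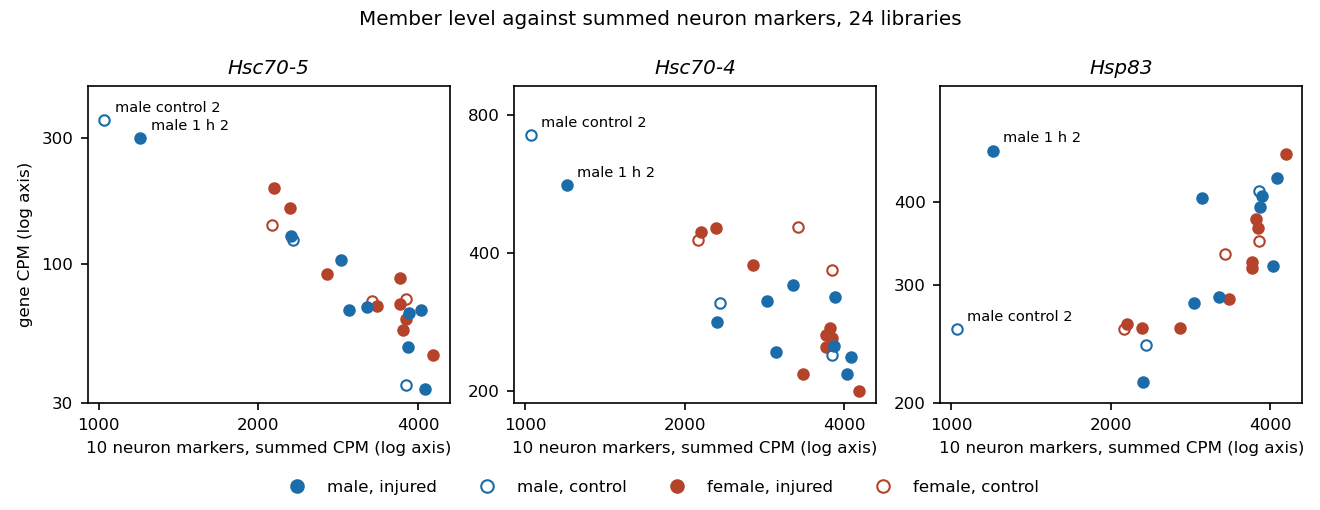
CPM of *Hsc70-5*, *Hsc70-4* and *Hsp83* against the summed CPM of 10 neuron markers in 24 libraries, on log axes, with males in blue, females in red and controls as open points. The labelled libraries male 1 h 2 and male control 2 lie apart at 1198 and 1025 CPM of neuron markers, and among the other 22 *Hsc70-5* falls with the markers (r = −0.887) and *Hsp83* rises (r = 0.829).

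Members also varied with each other. Of 36 pairs over the 22 libraries, 5 had a permutation adjusted p under 0.05 for r. The share of such pairs among all genes was not computed, so this count is not shown to be particular to chaperone genes. *Hsp83* and *Hsc70-5*, the cytosolic Hsp90 and the mitochondrial Hsp70, were inversely related (r = −0.851, rho = −0.893, permutation p = 1e-05, adjusted p = 0.000360), with r = −0.847 without the 2 libraries of most extreme *Hsp83* and −0.909 within groups. *Hsc70-4* and *Hsc70-5* rose together (r = 0.690, rho = 0.697, permutation adjusted p = 0.00846, 0.714 without the 2 extremes). *Hsp23* rose with *Hsc70-5* (r = 0.599, rho = 0.613) and *Hsc70-4* (r = 0.577, rho = 0.540) and fell with *Hsp83* (r = −0.569, rho = −0.558), with permutation adjusted p of 0.0394, 0.0441 and 0.0441 for r. By rho the adjusted permutation p was 0.0371 for the first of these pairs, but 0.0755 and 0.0695 for the other two. Without the 2 extreme libraries these were 0.675, 0.523 and −0.549. The neighbouring genes *Hsp23*, *Hsp26* and *Hsp27* were not among the pairs past that threshold. All values of a pair come from the same libraries and share their depth.

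**Figure D4:**
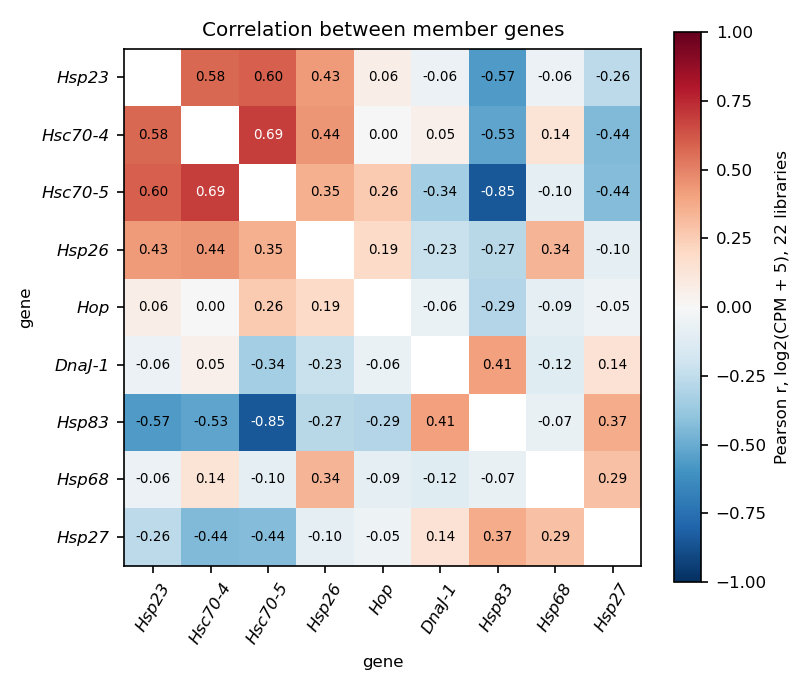
Pearson's r between the 9 counted members over 22 libraries (without male control 2 and male 1 h 2), in red where positive and blue where negative. The darkest cells are *Hsp83* with *Hsc70-5* (−0.851, blue) and *Hsc70-4* with *Hsc70-5* (0.690, red).

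The 3 genes most like each member were taken over all 24 libraries among genes with a mean of at least 20 CPM, and are given as r with the value over the other 22 libraries after it. *Hsc70-5* was nearest to *CG6910* (0.939, 0.888), *RpL28*, a ribosomal protein gene (0.934, 0.903), and *CG33170* (0.933, 0.898). *Hsc70-4* was nearest to *CR42862* (0.909, 0.860), *lwr*, the SUMO-conjugating enzyme gene (0.900, 0.841), and *RNASEK* (0.888, 0.799). *Hsp23* was nearest to the mitochondrial carrier gene *Mtch* (0.856, 0.814), the prohibitin gene *l(2)37Cc* (0.852, 0.815) and *ATPsynbeta* (0.838, 0.802). *Hsp83* was nearest to *babo*, a receptor gene of the activin pathway (0.817, 0.802), *ninaC*, a photoreceptor myosin (0.762, 0.725), and *CG13295* (0.751, 0.812). *Hsp27* was nearest to the sodium channel gene *NaCP60E* (0.867, 0.696), the GABA receptor gene *Rdl* (0.832, 0.614), itself a neuron marker here, and *bin3* (0.818, 0.599).

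*Hsp26* was nearest to the fatty acid binding protein gene *fabp* (0.777, 0.692), the glutathione transferase gene *GstE3* (0.762, 0.686) and *kraken* (0.757, 0.714). *Hsp68* was nearest to *CG3663* (0.854, 0.739), the insulin-like peptide gene *Ilp6* (0.793, 0.640) and *thoc5* (0.769, 0.598). *DnaJ-1* was nearest to *Rbcn-3B* (0.622, 0.587), *glo* (0.590, 0.607) and *SPoCk* (0.582, 0.562), and *Hop* to *CG1317* (0.643, 0.599), *path* (0.632, 0.575) and *CG11073* (0.601, 0.634). The best matches of *DnaJ-1* and *Hop* were thus the weakest of the 9 members.

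Other chaperone genes were read from 6 lists. Of 23 other heat shock genes, among them *Hsf* itself, 11 were tested, as were 19 of 24 Hsp70 and Hsp90 co-chaperones, 7 of 8 subunits of the chaperonin TRiC/CCT, all 6 prefoldin subunits, all 8 mitochondrial chaperones and 12 of 13 chaperones of the endoplasmic reticulum. No gene of TRiC/CCT or prefoldin was called in any of the 14 comparisons, and no gene of the endoplasmic reticulum list in the 6 injury comparisons. In those 6 comparisons the list medians of log2 FC lay between −0.35 and 0.52, at the ends for the mitochondrial chaperones in males at 4 h and the co-chaperones in males at 1 h, beside −0.06 to 0.02 over all genes.

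In males, *Hsp67Bc*, a small heat shock protein gene, was called higher at 1 and 2 h and *CG7409* lower at 2 h, so 1 of the 11 other heat shock genes was called at 1 h and 2 at 2 h, beside 4.64% and 7.26% of all tested genes. *Hsp67Bc* had 0, 53 and 1 counts in males at 1 h and 7, 23 and 2 at 2 h, against 0, 1 and 1 in male controls, ratios of 19.5 (95% counting interval 5.15 to 165) and 15.9 (4.06 to 137). At 1 h nearly all of these counts came from male 1 h 2. *CG7409* had 0 counts in all males at 2 h, against 0, 24 and 3 in male controls. The summed counts were at least 9.06-fold lower (against 3 counts over the group), a bound that rests mostly on male control 2. *Hsp60A*, the mitochondrial chaperonin gene, was called lower in males at 2 h (log2 FC −1.13, SE 0.53) and 4 h (−1.15, SE 0.54). It was the 1 called of 8 mitochondrial chaperones at each time, beside 7.26% and 3.92% of all tested genes. It had 93.4, 31.0 and 141 CPM at 2 h and 131, 60.6 and 73.6 CPM at 4 h, against 127, 366 and 71.4 CPM in male controls, of which 366 CPM was male control 2. The co-chaperone gene *CG1416* was called higher in males at 2 h (log2 FC 1.54, SE 0.70), with 38.0, 58.9 and 22.4 CPM, against 28.2, 9.69 and 10.5 CPM in controls. It was the 1 called of 19 co-chaperones there, beside 7.26% of all tested genes.

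In females, *nudC*, whose mammalian counterpart works with Hsp90, was called higher at all 3 times. It was the only one of the 19 co-chaperones called, beside 1.44%, 2.16% and 1.42% of all tested genes at 1, 2 and 4 h. It had 32.0, 28.0 and 25.1 CPM at 1 h, 39.6, 22.3 and 25.4 CPM at 2 h and 24.3, 28.7 and 19.8 CPM at 4 h, against 12.4, 11.4 and 1.32 CPM in female controls. All 9 injured females lay above all 3 controls, with log2 FC of 1.75 (SE 0.73) at 1 h, slightly more at 2 h and 1.53 (SE 0.72) at 4 h, and edgeR adjusted p = 1 at each time. The 3 comparisons share the same control brains, in which *nudC* had 6, 13 and 1 counts. In the same comparisons all 8 antenna markers were lower in injured females, 6, 5 and 7 of them called at 1, 2 and 4 h. Their median log2 FC was −3.44, −3.11 and −4.15. They summed to 452, 459 and 7554 CPM in female controls, with the highest sum in female control 2. In injured females the sums were 421 to 614, 266 to 609 and 236 to 486 CPM. In female control 2 *nudC* had 11.4 CPM, and the part of these markers in the *nudC* values was not tested. In males *nudC* had 5.89 to 37.0 CPM after injury, against 7.04 to 17.8 CPM in controls, and was not called. All injured females lay above all controls for 5.16%, 1.91% and 2.98% of all tested genes at 1, 2 and 4 h.

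Also in females, *CG7409* was lower at 1 h, with 0 counts against 25 in female control 2 and 0 in the other controls. The summed counts were at least 7.27-fold lower (against 3 counts over the group), a bound that rests on female control 2 alone. *Hsp67Ba* was lower at 2 h (log2 FC −1.79, SE 0.85, with 2.83, 3.71 and 7.61 CPM, against 16.5, 4.39 and 26.5 CPM in controls). *Hsp67Bc* was lower at 4 h, with 0, 0 and 1 counts, against 1, 5 and 14 in controls, a ratio of 0.0523 (95% counting interval 0.00126 to 0.327). Each was the 1 called of 11 other heat shock genes at its time, beside 1.44%, 2.16% and 1.42% of all tested genes. Over all times, the calnexin gene *Cnx14D* was lower in males than in females (log2 FC −1.93, SE 0.88). It was the only one of 12 tested endoplasmic reticulum chaperones called, beside 3.03% of all tested genes. Over both sexes, *nudC* was higher (1.28, SE 0.51) and *CG7409* lower at 1 h, where 3.34% of all tested genes were called. No other gene of the 6 lists was called in the averaged comparisons.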

How the data were processed

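The read counts per gene were deposited by the authors without normalization. Per their methods and processing notes, QuantSeq 3′ reads were sorted with CASAVA 1.8.2, aligned to dm3 with STAR 2.4 and tabulated per gene region. Annotation version and strand setting of the count are not given in the sources used here. The other deposited tables hold the authors' own edgeR 3.22.3 fold changes, p-values and average levels and were not used. The 5 rows that name no gene stayed out of library sizes (reads with no feature 1.74 to 7.19%, ambiguous 6.06 to 8.71% and aligned to several places 12.2 to 32.2% of a library). Calls use the threshold of the study's heatmap legends (unadjusted p under 0.05) rather than the FDR of 0.05 in its methods, both with |log2 FC| over 1.

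Counts of genes with at least 5 counts in at least 3 libraries were fitted with edgeR 4.0.16 in R 4.3.3 (TMM factors, robust quasi-likelihood F-test, 8 groups, 14 contrasts), and p-values were adjusted over the 7865 genes (Benjamini and Hochberg). The SE is |log2 FC| divided by the square root of F. The fit was tested on simulated data. DESeq2 1.42.0, limma 3.58.1, RLE factors, no filter, filterByExpr, a replicate block and left-out libraries were alternatives. Same-numbered injured and control libraries deviated together (every correlation over 0.1) only at 4 h, in both sexes, as a hint from the data and not the design. Intervals of count ratios and limits from 0 counts cover counting error only.

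The 9 members that passed the filter were tested in all 14 comparisons, and *Hsp22* in none. Each of the 9 is described in the 6 injury comparisons, and in the other comparisons values are given for some members only. The other list genes that were called and the 3 genes most like each member are named as well. Members and lists were chosen with earlier results of these data known. The reference (BDGP6) differed in build and served for names, overlaps and neighbours only, and no sequences are printed. Figures used Python with matplotlib.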

Additional observations from a re-analysis of the deposited data

Results flagged for a closer look

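The injury effect differed between the sexes past the threshold (unadjusted p under 0.05 for the difference itself, edgeR) for 1 member and 3 genes of the other chaperone lists. Of all tested genes, 3.04%, 3.65% and 3.05% were called for this difference at 1, 2 and 4 h. At 4 h 1 of 9 members was called. Of the 11 other heat shock genes, 1 was called higher and 1 lower at 2 h, and 1 higher at 4 h. Of the 19 co-chaperones, 1 was called at 2 h. For *Hsp68* at 4 h the male minus female difference was 2.91. It was called in all 8 alternative fits (2.16 to 3.27) and ran from 2.08 to 4.98 when single libraries were left out, where the call was lost without female control 3, female 4 h 2 or male 4 h 2. The male and female control values, 0 to 23.1 CPM and 31.6 to 60.8 CPM, do not overlap. *CG1416* at 2 h differed by 2.49, with 22.4 to 58.9 CPM in males at 2 h, against 9.69 to 28.2 CPM in male controls, and 8.36 to 29.3 CPM in females at 2 h, against 11.4 to 52.9 CPM in female controls. *CG7409* at 2 h differed by −6.18, a fitted value that is no bound because males at 2 h had 0 counts, while 30 of the 31 counts in females at 2 h lay in 1 brain. *Hsp67Bc* differed by 4.71 at 2 h and by 6.99 at 4 h, where it had 19 counts in males and 1 in females, against 2 in male and 20 in female controls. The SE was 0.96 for *CG1416*, 2.97 for *CG7409*, and 2.21 and 2.42 for *Hsp67Bc* at 2 and 4 h. The edgeR adjusted p was 0.9999 for each difference at 2 h and 0.9998 for that at 4 h. No alternative fits are given for these 3 genes.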

How the results depend on the processing

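The 126 member values were refitted under 8 alternatives and with each of 24 libraries left out, and a sign change is given where the value was called or moved by more than its SE. *Hop* in females at 2 h, *Hop* over both sexes at 2 h, *Hop* between the sexes over all times and the *Hsp68* male minus female difference at 4 h were called in all 8 alternatives. RLE factors and filterByExpr changed no member call. RLE factors moved the median log2 FC of all genes in males at 2 h to −0.17, against −0.02 with TMM, and lowered the share of higher calls in the male minus female difference at 2 h to 30.6%, against 41.5%. With limma voom the values of *Hsp83* and *Hop* in males at 1 h were −0.032 and 0.36, and the differences of *Hsp23* and *Hsc70-4* at 4 h were 1.31 and 0.48. Without male control 2 and male 1 h 2, *Hop* was 0.68, 0.28 and 0.50 in males at 1, 2 and 4 h, *Hsc70-4* was 0.14 in males at 4 h, 0.17 and 0.46 for the difference at 2 and 4 h, −0.58 between control sexes and −0.25 over all times, and *Hsc70-5* was −0.14 between control sexes, 0.037 over both sexes at 4 h and −0.25 over all times. Without the 3 shallowest libraries *DnaJ-1* was 0.31, 0.21 and 0.19 in males and −0.19 between control sexes. The cause of these sign changes was not tested.

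Counts of called genes moved by over 1.5 times as follows. With voom they were 293 and 273 in females at 1 and 4 h and 620 for the difference at 2 h. With no filter they were 183 in females at 1 h and 362 and 463 for the difference at 1 and 2 h. With filterByExpr, which tested fewer genes, they were 187 in males at 1 h, 60, 73 and 50 in females, 120, 168 and 138 for the differences, 146 between control sexes, 131, 204 and 114 over both sexes and 115 over all times. Without male control 2 and male 1 h 2 they were 171, 195 and 151 in males, 143 between control sexes and 209 and 120 over both sexes at 2 and 4 h. Without the 3 shallowest libraries they were 561 and 1124 in males at 1 and 2 h, 451 and 596 for the differences, 549 between control sexes and 677 over all times.

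With single libraries left out the counts ran from 258 to 665, 151 to 917 and 115 to 560 in males at 1, 2 and 4 h, 41 to 237, 126 to 261 and 75 to 188 in females, 176 to 577, 186 to 476 and 137 to 362 for the differences, 156 to 409, 185 to 545 and 105 to 347 over both sexes, 113 to 467 between control sexes and 178 to 428 over all times. Signs changed for *DnaJ-1* in males (−0.62 to 0.28, −0.62 to 0.22 and −0.56 to 0.23 at 1, 2 and 4 h) and between control sexes (−0.19 to 0.76), for *Hop* in males (−1.20 to 0.37, −0.90 to 0.30 and −1.93 to 0.49) and over both sexes at 4 h (−0.62 to 0.59), for *Hsc70-4* in males at 1 and 4 h (−0.73 to 0.39 and −0.69 to 0.13), in the difference at 2 and 4 h (−0.71 to 0.19 and −0.35 to 0.47) and between control sexes (−0.59 to 0.24), for *Hsc70-5* in males at 1 h (−1.07 to 0.87), over both sexes at 1 and 4 h (−0.79 to 0.18 and −0.75 to 0.031) and between control sexes (−0.18 to 1.25), for *Hsp23* in the difference at 4 h (−1.57 to 1.09), *Hsp27* in that at 1 h (−1.35 to 0.76), *Hsp68* over both sexes at 1 h (−0.44 to 0.96) and *Hsp83* in females at 2 h (−0.27 to 0.22). Calls were gained without male control 3 for *Hsp27* (differences at 2 and 4 h 2.28 and 2.34, between control sexes −2.05, over both sexes at 1 h 1.15), *Hsp68* (males at 4 h 3.78, differences at 1 and 2 h 3.51 and 3.27, over all times −1.04) and *Hsp26* (difference at 1 h 1.94), and without male control 2 for *Hsc70-4* (difference at 1 h 1.17). Without the 3 shallowest libraries *Hsc70-5* between control sexes was called at 1.22, against 0.86.

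Over 18 same-numbered pairs of injured and control libraries the deviations from group means correlated at −0.43 to 0.64, and 12 were over 0.1. All 3 pairs were over 0.1 at 4 h in both sexes, but not at 1 or 2 h. The main fit paired no samples at any time, and the block by replicate number was an alternative only. With the replicate number as a block, *Hsp26* in males at 1 h (1.16) and *Hsc70-5* in males at 2 h (−1.18) were not called and *Hsp68* in males at 4 h (2.03) was. Called genes under the block numbered 324, 580 and 306 in males and 117, 146 and 108 in females.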

Other observations

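Some values belong to no comparison. *Hsp70Bc*, the only inducible Hsp70 copy with any count, was counted in 3 libraries, all at 4 h post-TBI: 11 counts in female 4 h 2, 3 in male 4 h 2 and 1 in male 4 h 3. It was at 0 in the other 21 libraries. It was singled out after its values were seen, reads that fit several copies were not counted, and 0 counts in a library allow up to 25.6 CPM in the shallowest one. The summed level of the 9 counted members ran from 803 to 1669 CPM, and the highest sums were those of male 1 h 2 (1669 CPM) and male control 2 (1529 CPM), beside 803 to 1200 CPM in the other 22 libraries.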
